A study of Mus musculus with 96 samples.

Results

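The Kruppel-like factors described here are 10 genes, Klf2, Klf3, Klf4, Klf5, Klf6, Klf7, Klf9, Klf10, Klf11 and Klf13, taken by gene symbol from a table of 15895 genes, and each of them had 1 row. RNA of mouse embryonic fibroblasts was sequenced through the cell cycle after starvation. These were primary cells of CF-1 embryos at day 13 of gestation, held for 36 h in 0.5% fetal calf serum and given 20% serum at 0 h, and every library shares that starvation. Cycle 1 gave 63 libraries from 1 h before serum to 38 h, and Cycle 2 gave 32 from 1 h before serum to 27 h. The 12.5 h sample of Cycle 1 was not analysed here. The 4 libraries at 0 h and 1 h earlier in either Cycle are called starved, and each hour after serum was sampled once in a Cycle, so that the replicates are the 2 Cycles at the 29 hours they share. Nothing states that the Cycles came from separate embryos, and the p-values therefore measure the spread between these libraries, which may be technical. A value is the number of reads on the exons of a gene scaled to a library total of 10000000. Reads on both strands were counted, so that a gene and a partner on the other strand cannot be told apart, and in the annotation used here Klf7 shares exon bases with Gm13748 and Gm17427 on the other strand while the other 9 members share none.

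Kruppel-like factors are transcription factors that bind GC-rich and CACCC elements through zinc fingers at the carboxyl end, and they differ in the amino-terminal part, which recruits coactivators or corepressors. Klf2, Klf4, Klf5, Klf6 and Klf7 act mainly as activators, Klf3 recruits the corepressor CtBP, and Klf9, Klf10, Klf11 and Klf13 recruit the corepressor Sin3. Several members are known as growth factor or serum response genes, Klf2 and Klf4 are associated with growth arrest in many cell types, and Klf5 with proliferation.

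Libraries held 5067426 to 14500301 reads. The 10 fibroblast markers looked up, among them Col1a1, Col1a2 and Vim, summed to 397545 to 554186 in starved libraries and to 176122 to 520680 after serum. Markers of other cells gave sums after serum of 403 to 686 for 8 endothelial genes, 529 to 4989 for 8 macrophage and leukocyte genes and 45.8 to 770.2 for 8 epithelial genes, and in starved libraries of 511 to 587, 1165 to 3637 and 162 to 404. The sums hide falls of single markers. In the F test over shared hours given below, 5 endothelial genes fell and 0 rose, with a median largest change of -2.60. Eng, at 281 to 326 in starved libraries, holds much of that sum and was not called. Of the leukocyte genes 5 fell and 1 rose, of the epithelial 6 and 1, and of the fibroblast markers 5 and 1. Over all genes 37.0% fell and 15.5% rose. Of 8 erythroid markers 1 was in the table, Alas2, with values up to 6.24. In bulk RNA, fewer cells of a type and less RNA per cell cannot be told apart.

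Klf2, Klf4, Klf6 and Klf10 were higher at 0 h than 1 h before, in both Cycles. Their promoters are shown first, since these genes moved together within the starved cells, and 3 of the 4 had an entry in the RefSeq promoter table (build GRCm38.p6), which held 8 of the 10 members. Each stretch was placed by its single exact match in NCBIM37 (mm9), and each ends at the last base before the gene as annotated in that build. Capitals mark the GC box, GGGCGG on either strand, and in Klf2 also the MEF2 site.
Klf2, chr8:74842711-74842931, plus strand: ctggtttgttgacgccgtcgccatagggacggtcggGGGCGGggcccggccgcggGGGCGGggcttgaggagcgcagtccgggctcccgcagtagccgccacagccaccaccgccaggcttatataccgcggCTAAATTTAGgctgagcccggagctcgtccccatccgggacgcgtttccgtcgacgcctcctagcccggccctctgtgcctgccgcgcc
Klf4, chr4:55545348-55545597, minus strand: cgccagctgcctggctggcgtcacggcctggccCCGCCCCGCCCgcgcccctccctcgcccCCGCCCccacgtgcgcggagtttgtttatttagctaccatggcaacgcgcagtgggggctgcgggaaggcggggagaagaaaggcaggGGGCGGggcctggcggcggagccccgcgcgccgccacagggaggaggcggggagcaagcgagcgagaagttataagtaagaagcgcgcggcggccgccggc
Klf6, chr13:5860485-5860734, plus strand: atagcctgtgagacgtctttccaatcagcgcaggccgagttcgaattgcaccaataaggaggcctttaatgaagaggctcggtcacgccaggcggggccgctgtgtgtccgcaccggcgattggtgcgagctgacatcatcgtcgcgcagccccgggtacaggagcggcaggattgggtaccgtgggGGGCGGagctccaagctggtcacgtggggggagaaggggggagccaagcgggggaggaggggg

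Within the 250 bases before the start of transcription in RefSeq, which for Klf2 lies 29 bases inside the gene as annotated in NCBIM37, the GC box was found in 7 of the 8 members with an entry, against 32.7% of all 32851 promoters of that length in the table, and Klf9 was the member without it. CCACCC, the core of the CACCC box, was found in 4 of 8 members against 28.1% of all promoters, and the match of Klf2 lies in bases not printed above. The MEF2 site was found in Klf2 alone, from 118 to 109 bases before the RefSeq start, against 2.92% of all promoters, and it was searched after the Klf2 sequence had been seen. TGACG, the core of the cyclic AMP response element, was found in Klf2, Klf4, Klf9 and Klf13, against 17.8% of all promoters. The AP-1 site TGANTCA was found in Klf9 alone, against 6.75% of all promoters. The CArG box, the full element TGACGTCA and TATAAA were found in none of the 8, against 1.47%, 1.55% and 12.4% of all promoters. All motifs were searched on both strands, TGACG is contained in the full element, and these are matches of letters only.

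At 0 h each of the 4 genes stood above its level 1 h earlier. Klf2, an activator, had values of 539.6 and 2018 at 1 h before serum and 0 h in Cycle 1, and of 168 and 740.0 in Cycle 2. Klf4, an activator known from growth arrest and pluripotency, went from 625 to 3078 and from 307 to 1136. Klf6, a broadly expressed activator, went from 1751 to 7289 and from 2149 to 6075. Klf10, a TGF-beta inducible repressor, went from 369.7 to 851 and from 336 to 702. In each of these 4 genes both libraries at 0 h lay above both at 1 h before serum. In a limma fit on log2(value + 1) with each hour and the Cycle as terms, the differences between 0 h and 1 h before serum were 2.02 with SE 0.31 for Klf2, 2.09 with SE 0.31 for Klf4, 1.78 with SE 0.26 for Klf6 and 1.13 with SE 0.18 for Klf10. The adjusted p values of this limma test, which was chosen after the values had been seen, were 0.000123 for Klf2, 5.48e-05 for Klf4, 3.64e-05 for Klf6 and 0.000135 for Klf10. Over all genes, 68 of 15895, or 0.428%, were higher at an adjusted p under 0.05 and a log2 difference above 1, so that the 4 of 10 members stood above that background. Without the Cycle in the fit the adjusted p of limma for Klf2 was 0.132, and the other 3 stayed called.

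**Figure D1:**
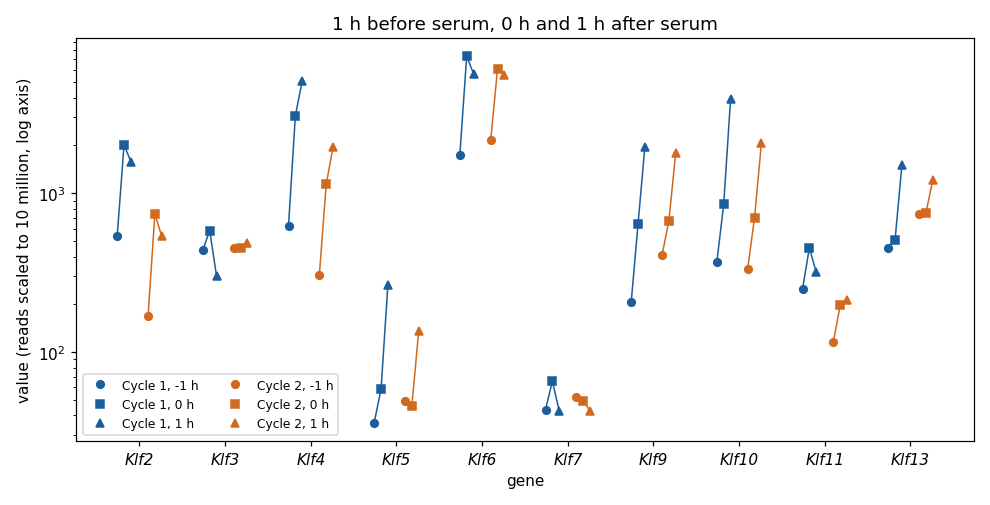
Values of the 10 members (log axis, reads scaled to 10000000) in single libraries 1 h before serum (circles), at 0 h (squares) and 1 h after serum (triangles), with Cycle 1 in blue and Cycle 2 in orange. Klf2 and Klf6 were at 0 h above their value at 1 h in both Cycles, while Klf5 at 0 h lay at 58.4 and 46.1, far below its values at 1 h of 265 and 136.

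The other 6 members did not pass this test. Klf9, a glucocorticoid-responsive repressor, went from 206 to 640.1 and from 406 to 671, a log2 difference of 1.18 with SE 0.40, and its adjusted p in limma was 0.464. Klf11 went from 249 to 453 and from 116 to 197, with a log2 difference of 0.81 and SE 0.43. Klf3, Klf5, Klf7 and Klf13 had log2 differences of 0.21, 0.29, 0.25 and 0.10, with SE of 0.41, 0.34, 0.55 and 0.19. The median difference was 0.97 over the 10 members and -0.05 over all genes. Immediate early genes, which cells transcribe without new protein synthesis, moved with them: each of Fos, Fosb, Egr1, Jun, Junb, Ier2, Nr4a1, Dusp1 and Atf3, named after their values had been seen, was 4.50- to 311-fold higher at 0 h than 1 h before in each Cycle. Fos went from 914 to 24883 in Cycle 1 and from 466 to 15149 in Cycle 2. The handling of the cells between these libraries is not described in the sources used here, and its part in the difference was not tested. The starved baseline therefore averages unlike levels for Klf2, Klf4, Klf6 and Klf10. In Klf9 and Klf11, which did not pass, the starved times also lay apart, by 1.18 and 0.81. Changes after serum are therefore given against either starved time as well.

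Over the 29 shared hours, 7 of the 10 members passed a limma F test of the hours against the 4 starved libraries, at an adjusted p under 0.05 and with a log2 change beyond 1 in either direction at any hour. Over all genes 8352 of 15895, or 52.5%, passed, so that this count by itself sets the members little apart. By the sign of the largest change, 4 members rose (Klf5, Klf9, Klf10 and Klf13) and 3 fell (Klf2, Klf4 and Klf11), and over all genes 2466 rose and 5886 fell. The median of the largest change was -0.87 over the members and -0.88 over all genes. Klf3, Klf6 and Klf7 did not pass, with adjusted p of 0.347, 0.854 and 0.188 in limma.

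**Figure D2:**
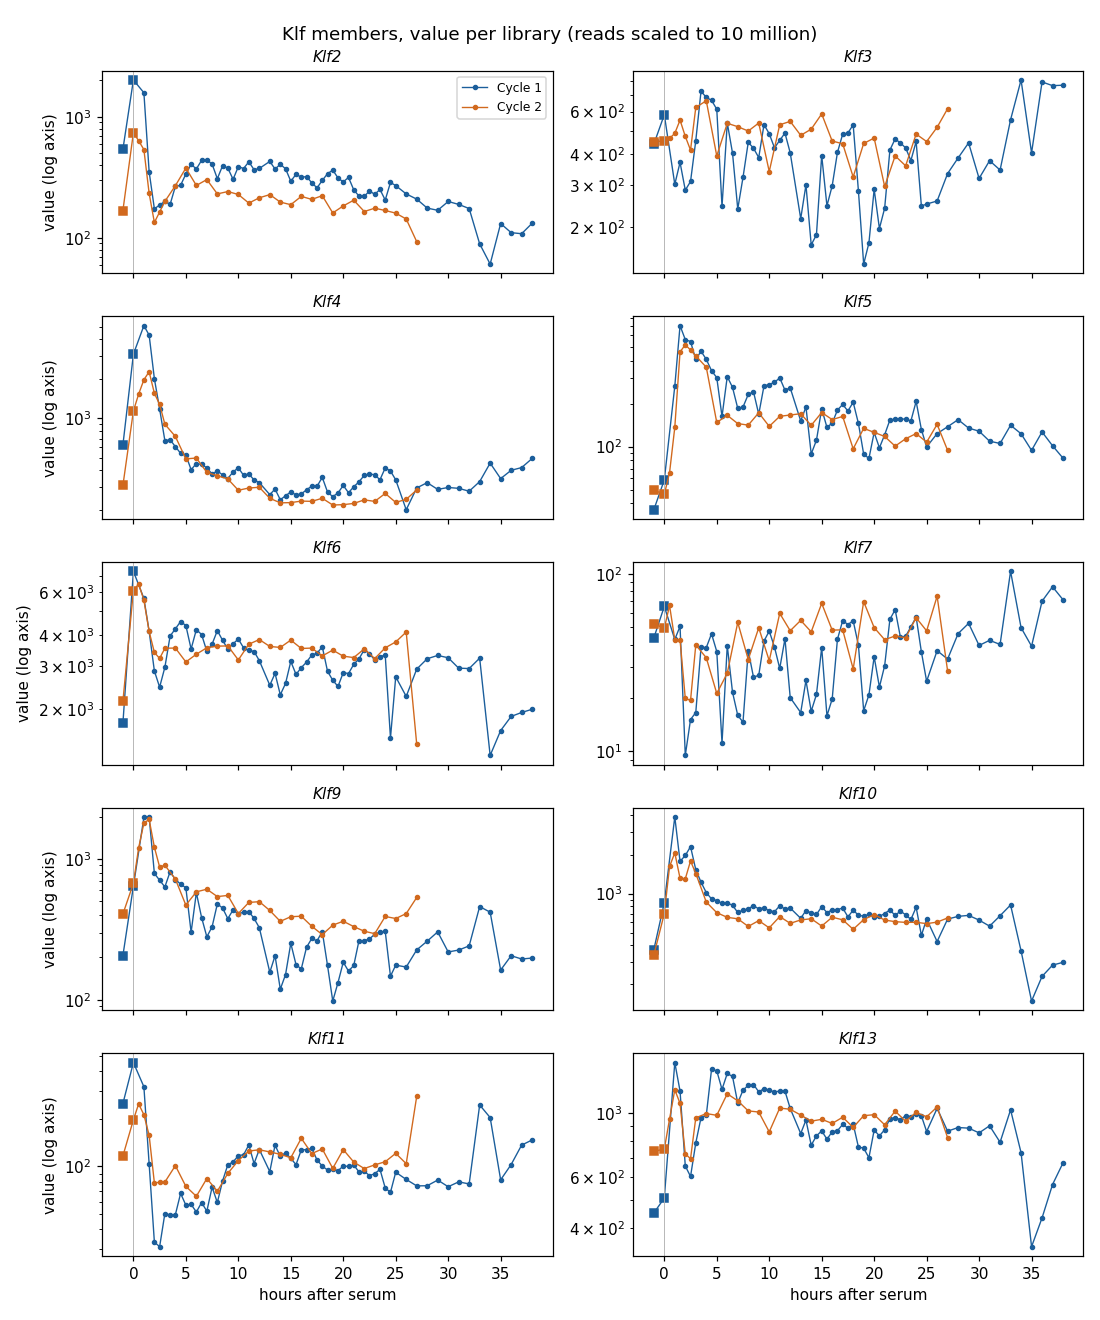
Value of each member (log axis, reads scaled to 10000000) in every library against hours after serum, with Cycle 1 in blue, Cycle 2 in orange and starved libraries as squares. Klf5 rose to 703 and 516 and stayed above its starved values, Klf4 fell to 201 and 218 after its early peak, and Klf6 dropped to 1296 at 34 h of Cycle 1 and 1440 at 27 h of Cycle 2.

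The hours were also grouped into 10 windows, the last of them (28 to 33 h and 34 to 38 h) sampled in Cycle 1 only. The libraries of a window are successive times of a course and not repeats of 1 time. The window tests nevertheless take them as replicates, so that their SE and p-values hold the spread along the course. At 28 to 33 h and 34 to 38 h no second Cycle stands behind the calls. Of 100 pairs of member and window, 13 were higher and 24 lower than starved by limma, with the same thresholds. Over all genes 6.71% of the pairs were higher and 16.8% lower. The lower calls rested on the 0 h libraries: against the libraries 1 h before serum alone, 21 pairs were higher and 6 lower, where 6.52% and 16.3% of all pairs passed, and against 0 h alone 12 were higher and 40 lower, where 6.56% and 15.5% passed. Leaving out the 0 h library of Cycle 1 alone brought the 24 lower pairs to 13, and leaving out the whole of Cycle 1 brought them to 7. The latter also removes the 28 to 33 h and 34 to 38 h windows with their lower calls, so that fewer than 100 pairs remain. Against each starved time taken alone, 12 pairs were higher (9 of Klf5, 1 of Klf9 and 2 of Klf10) and 6 were lower (2 of Klf2, 1 of Klf7 and 3 of Klf11). These changes passed whichever starved time was taken.

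**Figure D3:**
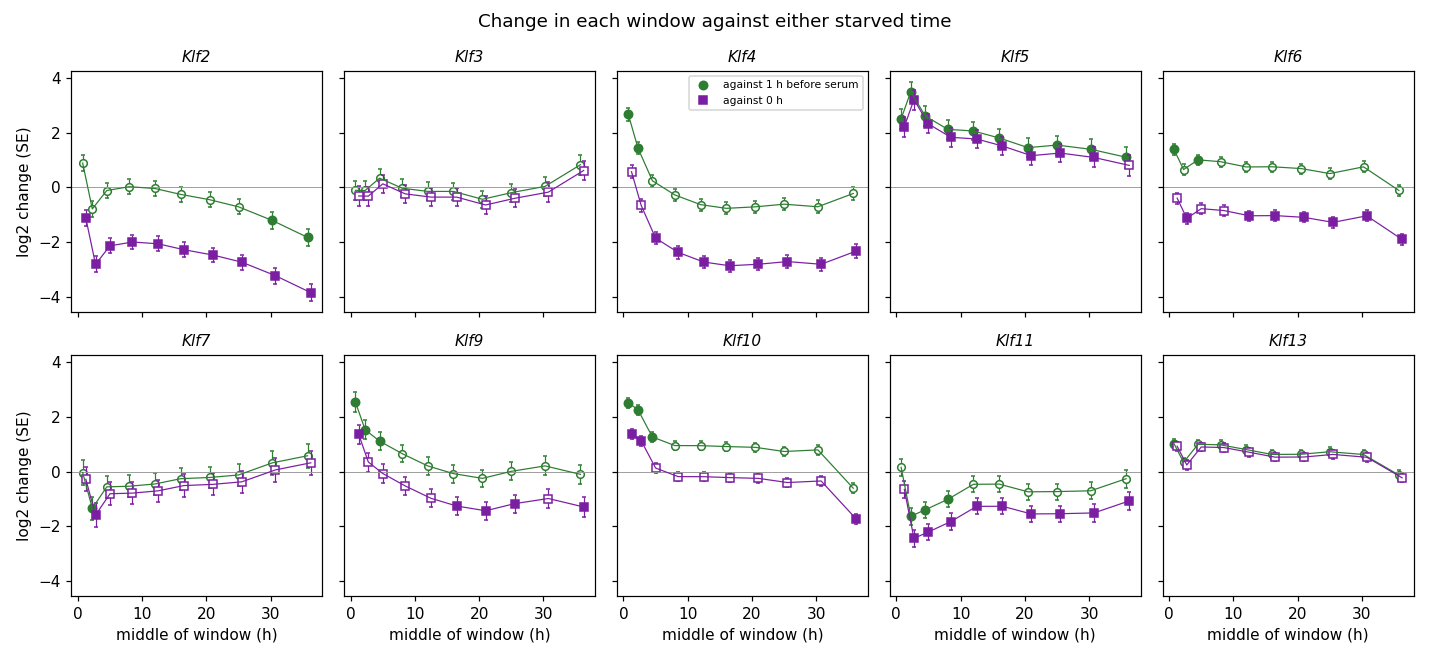
Log2 change of each member in each of the 10 windows, from limma with the Cycle as a block, against the libraries 1 h before serum (green circles) or those at 0 h (purple squares), set 0.25 h to either side of the middle of the window, with SE as bars and filled symbols where the change passed the thresholds. The curves of Klf5 lie close together between 0.80 and 3.49, and those of Klf2 and Klf4 lie apart, with values at 6.5 to 10 h of 0.03 and -1.99 for Klf2 and of -0.27 and -2.37 for Klf4.

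Among the activators, Klf5 showed the largest and longest rise. Klf5, which promotes proliferation in several epithelial and mesenchymal cells, had starved values of 36.1, 58.4, 49.6 and 46.1, resting on 24 to 64 reads. It was at 65.5 at 0.5 h, an hour sampled in Cycle 2 only, then at 265 and 136 at 1 h in Cycles 1 and 2, at 703 and 460.4 at 1.5 h, and at 561 and 516 at 2 h. Both Cycles thus moved together, and no library after serum overlapped the starved libraries of its Cycle. The change at 1.5 h was 3.57 on the log2 scale with SE 0.29, with 3.91 in Cycle 1 and 3.24 in Cycle 2, and the adjusted p of the limma F test was 4.27e-10. Its value had fallen under 0.5 of the highest by 4.5 h in Cycle 1 and 5 h in Cycle 2, yet it was still 1.40 higher with SE 0.26 at 23.5 to 27 h.

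Klf4 rose briefly and then fell. Its highest values were 5087 at 1 h in Cycle 1 and 2264 at 1.5 h in Cycle 2, which were 8.14- and 7.37-fold over 1 h before serum and 1.65- and 1.99-fold over 0 h. At 0.5 to 1.5 h it was 1.62 higher than starved with SE 0.25, and against 0 h alone the difference was 0.57 with SE 0.25, which did not pass. From 6.5 h on it was called lower in all 7 windows, down to -1.81 with SE 0.21 at 14.5 to 18 h. Against 1 h before serum none of these 7 passed, with changes from -0.76 to -0.22. The window medians from 6.5 h on ran from 0.447- to 0.673-fold of the library 1 h before serum in Cycle 1. In Cycle 2 they ran from 0.730- to 1.15-fold. The lowest single libraries up to 27 h were 0.321-fold at 26 h of Cycle 1 and 0.710-fold at 19 h of Cycle 2. That 26 h library lay 0.65 on the log2 scale below its neighbours in time.

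Klf2 had no peak above its 0 h level. It was at 1583 at 1 h and 352 at 1.5 h in Cycle 1, and at 634 at 0.5 h, 537 at 1 h and 233 at 1.5 h in Cycle 2. It reached 174 and 134 at 2 h in Cycles 1 and 2, below the libraries 1 h before serum, and returned to 266 and 269.7 at 4 h. At 2 to 3 h the change was -1.79 with SE 0.27 against all starved libraries and -0.78 with SE 0.29 against 1 h before serum, and the latter did not pass the size threshold. It rose again to 440.5 at 7 h in Cycle 1 and 377 at 5 h in Cycle 2, was at 428 and 228 at 13 h, and lay at 209 and 93.0 at 27 h. At 28 to 33 h and 34 to 38 h only Cycle 1 was sampled. The limma fit, which pools the libraries 1 h before serum of both Cycles, gave -1.20 with SE 0.29 and -1.82 with SE 0.30. Both were called. The Klf2 medians of Cycle 1 in these windows were 0.325- and 0.204-fold of its own library 1 h before serum. The F test over the shared hours gave an adjusted p of 0.00145 with the Cycle in the limma fit and 0.0965 without it.

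Klf6 was highest at 0 h and in the first hour. It was at 5652 at 1 h in Cycle 1 and at 6475 at 0.5 h and 5560 at 1 h in Cycle 2, and both Cycles had fallen under 0.5 of the highest value after serum by 2.5 h. Against 1 h before serum it was 1.39 higher with SE 0.20 at 0.5 to 1.5 h and 1.01 higher with SE 0.19 at 3.5 to 6 h, both called, while against 0 h it was called lower in 7 of 10 windows. Against all 4 starved libraries it was called in 1 window, 34 to 38 h, at -1.00 with SE 0.21.

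Klf7, an activator studied mostly in neurons and fat cells, had the fewest reads of the 10 members, with a mean value of 40.8. Its starved values were 43.6, 65.6, 52.5 and 49.4. It was at 42.7 at 1 h, 9.49 at 2 h and 15.1 at 2.5 h in Cycle 1, and at 42.6, 19.9 and 19.4 at the same hours of Cycle 2. The value of 9.49 is 10 reads, with an exact Poisson interval at 95% from 4.55 to 17.5 that covers counting error only. The change at 2 to 3 h was -1.46 with SE 0.34 against starved, and -1.34 and -1.59 against 1 h before serum and 0 h, each of which passed. Klf2, Klf7 and Klf11 were thus the 3 members called lower at 2 to 3 h, where 18.8% of all genes were.

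Of the members that recruit Sin3, Klf9, Klf10 and Klf13 rose by the sign of their largest change. Klf10 was at 3899 at 1 h, 1772 at 1.5 h and 2303 at 2.5 h in Cycle 1, and at 2061, 1313 and 1786 at these hours of Cycle 2, so that each Cycle had a second, lower maximum at 2.5 h. The change at 1 h was 2.44 with SE 0.23, with an adjusted p of 5.22e-09 in the limma F test, and at 2 to 3 h it was 1.69 with SE 0.16. Against 1 h before serum it was called higher in 3 windows, up to 6 h, and it then stayed 0.73 to 0.95 higher through 33 h, below the size threshold.

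Klf9 was at 1969 at 1 h and 1988 at 1.5 h in Cycle 1 and at 1797 and 1908 in Cycle 2, an almost equal height in both. It had fallen under 0.5 of that by 2 h and 2.5 h. The change at 1.5 h was 2.16 with SE 0.38, with an adjusted p of 4.20e-07 in the limma F test. Against 1 h before serum Klf9 was called higher in 3 windows, and against 0 h higher in 1 and lower in 4. In Cycle 1 its lowest value was 98.0 at 19 h, 0.476-fold of the 206 seen 1 h before serum, and in Cycle 2 its lowest was 290.3 at 18 h. At 0.5 to 1.5 h, Klf4, Klf5, Klf9 and Klf10 were the 4 members called higher than starved, against 2.89% of all genes.

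Klf13, a repressor also known from T cells and heart, was at 451, 508, 737 and 751 in the starved libraries. It was at 1496 and 1205 at 1 h, dropped to 603 and 695 at 2.5 h in Cycles 1 and 2, and was back at 983 and 996 at 4 h. The change at 1 h was 1.17 with SE 0.16, of which 1.64 in Cycle 1 and 0.69 in Cycle 2, with an adjusted p of 5.81e-05 in the limma F test. From 3.5 to 33 h its window changes lay between 0.58 and 0.95 with adjusted p under the threshold and none past the size threshold. The Cycles differed here too. In Cycle 1 its medians at 3.5 to 6 h, 6.5 to 10 h and 10.5 to 14 h were 2.69-, 2.52- and 2.16-fold of the starved mean of that Cycle. In Cycle 2 they were 1.34-, 1.36- and 1.35-fold.

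Klf11, a TGF-beta inducible repressor close to Klf10 in sequence, was lower than starved at 2 to 3 h, where Klf10 was higher. Over 31 times the Pearson correlation of Klf10 and Klf11 was -0.15 in Cycle 1 and 0.04 in Cycle 2. Klf11 stood at 319 and 212 at 1 h, fell to 33.2 and 78.6 at 2 h and to 31.1 and 79.4 at 2.5 h, and was at 49.5 and 101 at 4 h. In Cycle 1 every library from 1.5 h on lay below the 249 seen 1 h before serum. The change at 2.5 h was -2.16 with SE 0.38, of which -3.39 in Cycle 1 and -0.92 in Cycle 2, with an adjusted p of 0.000514 in the limma F test. It was called lower against each starved time taken alone in 3 windows, from 2 to 10 h, with changes against 1 h before serum of -1.63, -1.39 and -1.01. In Cycle 1 its medians in these windows were 0.133-, 0.217- and 0.311-fold of the library 1 h before serum. In Cycle 2 they were 0.682-, 0.643- and 0.748-fold.

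Klf3, which represses through CtBP, was not called in any window. Its starved values were 440.4, 583, 451 and 454, and over the hours up to 27 h it ran from 141 at 19 h to 728 at 3.5 h in Cycle 1 and from 295 at 21 h to 665 at 4 h in Cycle 2. Its values jumped between neighbouring hours in Cycle 1, and those of Klf5, Klf7 and Klf9 jumped with them. To describe this, each of 77 libraries from 4 h on, the last of each Cycle left out, was compared with the mean of its neighbours in time, and the median deviation of 1898 genes with a longest transcript over 5000 bases was set against that of 1834 genes under 2000 bases. Lengths were found for 95.2% of the 9112 genes with a mean of at least 100. This difference ran from -0.68 to 0.55 in Cycle 1 and from -0.41 to 0.20 in Cycle 2 on the log2 scale.

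In the 15 libraries where it was under -0.2, of which 11 were of Cycle 1, Klf3 and Klf9 lay below their neighbours in 15 of 15, by a median of 0.48 and 0.34 on the log2 scale. Klf6, Klf7 and Klf10 did so in 14 of 15 and Klf5 in 13 of 15, while Klf2 lay above its neighbours in 13 of 15, by a median of 0.14. Klf13, Klf4 and Klf11 lay below in 12, 11 and 10. The members did not sort by their own length. The longest transcript was 2447 bases in Klf3, 3263 in Klf9, 7664 in Klf7 and 6396 in Klf13. In Klf5 it was 1721 and in Klf2 1847, both under 2000. The 5.5 h library of Cycle 1, with the lowest difference, held Klf3 1.23 and Klf7 1.68 below their neighbours. The part of this difference in the swings of Klf3, Klf7 and Klf9 was not tested.

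**Figure D4:**
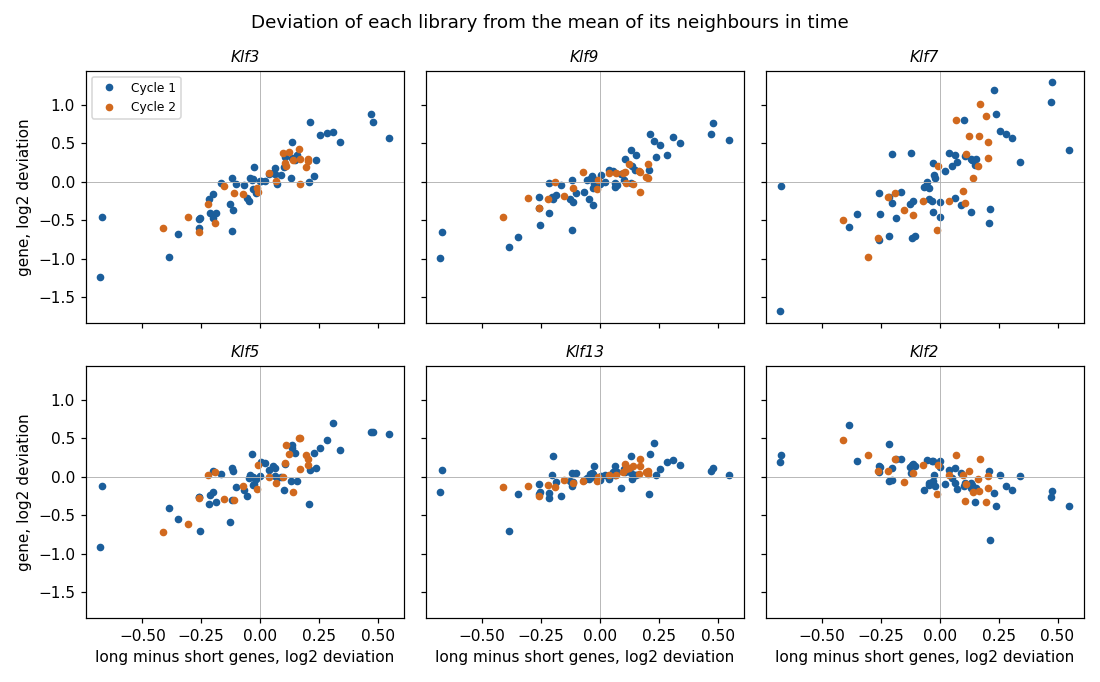
Each point is 1 of 77 libraries, with the log2 deviation of a member from the mean of the neighbouring libraries on the y axis and the same deviation of long genes minus that of short genes on the x axis, Cycle 1 in blue and Cycle 2 in orange. Klf3 and Klf9 rise from lower left to upper right and lie below 0 in all 15 libraries under -0.2 on the x axis, while Klf2 runs the other way.

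The last libraries of each Cycle stood apart. In the 5 libraries of 34 to 38 h of Cycle 1, Klf10 was at 149 to 362 against 562 to 818 in the 6 libraries of 28 to 33 h, and Klf6 at 1296 to 1997 against 2926 to 3309, with no overlap in either gene. Klf2, Klf4, Klf6 and Klf10 were called lower than starved at 34 to 38 h, 4 of 10 members where 14.5% of all genes were. Against 1 h before serum of these 4 Klf2 alone was called in this window, and Klf4, Klf6 and Klf10 had changes of -0.22, -0.11 and -0.61. That fit pools the libraries 1 h before serum of both Cycles. Against that library of Cycle 1 alone, the medians of Klf4, Klf6 and Klf10 were 0.673-, 1.07- and 0.761-fold. At 23.5 to 27 h the members called lower were Klf2, Klf4 and Klf11, where 19.8% of all genes were, and against 1 h before serum none of the 3 passed the size threshold, with changes of -0.71, -0.61 and -0.73. Klf3 lay between 405 and 810 at 34 to 38 h, and the change of 0.72 with SE 0.29 was below the size threshold.

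Cycle 2 showed such a step between 26 h and 27 h, its last hour. There Klf6 went from 4122 to 1440, Klf2 from 143 to 93.0 and Klf11 from 104 to 277, and in Cycle 1 Klf11 went from 77.5 at 32 h to 245 at 33 h while Klf2 went from 175 to 89.2. Klf10 stayed at 604 and 650 over that step of Cycle 2, unlike in Cycle 1. The 9 immediate early genes moved with it, their sum going from 7020 to 2078 between 26 h and 27 h of Cycle 2, and from 3553 to 5764 at 28 to 33 h, the lowest of these at 33 h, down to 1532 to 2351 at 34 to 38 h of Cycle 1. The fibroblast markers summed to 196756 to 243207 in those 5 libraries, against 183920 to 195913 at 28 to 33 h. The part of these libraries in the late calls was not tested beyond leaving out the 27 h library of Cycle 2 and those of Cycle 1 from 33 h, which removes the last window, after which 13 pairs were higher and 20 lower.

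A limma F test of the Cycle and window interaction up to 27 h was passed by 3 members, where 46.2% of all genes passed. Each Cycle is 1 time course, and this test takes the successive libraries of a window as replicates. It therefore cannot measure how far responses vary from one time course to another. The 0.5 to 1.5 h window held 2 libraries of Cycle 1 and 3 of Cycle 2. Klf11 differed most at 2 to 3 h, with -3.14 in Cycle 1 and -0.93 in Cycle 2 and an adjusted p of 0.000307. Klf13 differed most at 0.5 to 1.5 h, with 1.48 and 0.53 and an adjusted p of 0.000399 in limma. Klf4 differed most at 3.5 to 6 h, with -1.39 and -0.07 and an adjusted p of 0.0411 in limma, which became 0.248 on the shared hours only. The starved levels of these genes were themselves unequal, with Klf11 at 249 and 453 in Cycle 1 against 116 and 197 in Cycle 2, Klf13 at 451 and 508 against 737 and 751, and Klf4 at 625 and 3078 against 307 and 1136. The median values within these windows were 532 and 498 for Klf4, 33.2 and 79.4 for Klf11 and 1344 and 1081 for Klf13.

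The other genes of the family and its pathways were read from lists, against all genes of the table, of which 15.5% rose and 37.0% fell in the F test over the shared hours. Of 16 remaining Sp and KLF genes 12 were in the table, 2 rose and 6 fell, with a median of the largest change of -1.63 against -0.88 over all genes. Sp7, a bone-forming factor, rose by 4.56 with SE 0.72 at 24 h from starved values of 0 to 8.59, and Klf16 by 1.11 with SE 0.13 at 5 h. Klf14 fell by 4.42 on the log2(value + 1) scale at 14 h, from starved values of 54.1 and 52.0 in Cycle 1 and 7.63 and 7.42 in Cycle 2. Klf15 fell by 4.30 at 2 h and Klf12, a CtBP-binding repressor, fell by 3.05 at 21 h. Sp7, Klf12, Klf14 and Klf15 reached 0 in some library, so that these 4 changes depend on the pseudocount of 1.

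Of 14 partners and modifiers of KLF proteins, 2 rose and 3 fell, 5 in all where 52.5% of all genes passed, with a median of -0.46. Fhl3 rose by 1.54 at 19 h and the ubiquitin ligase Smurf1 by 1.46 at 4 h. The acetyltransferase Kat2b fell by 2.06 at 5 h, the corepressor Sin3a fell by 1.35 at 2 h and the coactivator Ep300 fell by 1.29 at 2 h. Of 17 genes known upstream of KLF genes, 5 rose and 6 fell, 11 in all where 52.5% of all genes passed, with a median of -0.61. The growth factor Tgfb1 rose by 3.23 at 5 h, its signal transducer Smad3 by 2.12 at 2.5 h and the SRF cofactor Mkl1 by 1.63 at 27 h. Egr1 fell by 5.10 at 27 h from a baseline that includes its 0 h values, Mef2c fell by 2.48 at 23 h and Foxo3 fell by 2.18 at 2 h.

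Of 18 genes known as KLF targets, 13 rose and 3 fell, where 15.5% and 37.0% of all genes did, with a median of the largest change of 1.63. Besides Tgfb1, which is in both lists, the smooth muscle gene Tagln rose by 2.14 at 21 h and the lipid receptor S1pr1 by 2.06 at 5 h. The kinase inhibitor Cdkn1c fell by 3.65 at 24 h, from starved values of 5381 and 4685 in Cycle 1 and 717 and 779.96 in Cycle 2, Ppargc1a fell by 3.48 at 21 h and Pdgfb fell by 1.52 at 22 h. The starved values of Ppargc1a were low, 37.6 and 40.1 in Cycle 1 and 21.0 and 4.12 in Cycle 2. Its lowest value was 0.731, so that its change depends on the pseudocount of 1. The lists were chosen with results of these data known, and all genes had a median of -0.88.

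The genes most like each member were taken among 9112 genes with a mean of at least 100, by Pearson correlation of log2(value + 1) over 31 times in each Cycle and ranked by the lower of both. The points share their libraries, and these are descriptions. Klf4 went with Cxcl1 at 0.97 in both Cycles, then with Fosb and Junb. Klf5 went with Tmem2 at 0.93 and 0.94, then with Eaf1 and Cdk17. Klf9 went with Bach1 at 0.93 and 0.96, then with Jmjd1c and Spty2d1. Klf10 went with Bcl10 at 0.93 and 0.91, then with Trib1 and Ptp4a1. Klf3 went with Mib1 at 0.90 in both, then with Usp9x and Prrc2c, and Klf7 with Zfp644 at 0.85 and 0.89, then with Arid5b and Tcf20.

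The remaining members had lower correlations. Klf2 went with Nfil3 at 0.70 and 0.86, then with Fos and Jun. Klf6 went with Jun at 0.74 and 0.81, then with Nfkbiz and Tnfaip3. Klf11 went with Vps41 at 0.79 and 0.74, then with 2610305D13Rik and Phip, and Klf13 with Zfp568 at 0.74 in both, then with Phlpp1 and Dusp8. No member was among the 3 genes nearest to another member. Some members still ran alike: Klf4 and Klf9 correlated at 0.85 and 0.95 in Cycles 1 and 2. Klf9 and Klf10 did so at 0.80 and 0.82, and Klf4 and Klf10 at 0.77 and 0.83. Other pairs lay below 0 in both Cycles, such as Klf5 and Klf11 at -0.59 and -0.38.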

How the data were processed

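RNA-seq libraries of poly(A) RNA were read as 50 bp single ends, 12 samples per lane. The authors aligned the reads to mm9 with STAR and counted them on exons of both strands with HOMER, and the deposited values are a signal, reads scaled to 10000000 per library. Of 96 columns 95 were used, and 1 whose name matches no sample was left out, so that the 12.5 h sample of Cycle 1 was not analysed here. Between 94.2% and 96.2% of low values in a library were whole reads (within 0.1), and all member values were.

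Tests were made on log2(value + 1) with limma 3.58.1 (R 4.3.3), without trend or robust options and with the Cycle as a block. A gene was called at an adjusted p (Benjamini-Hochberg over all 15895 genes) under 0.05 and a log2 change beyond 1 in either direction. The F test over hours had 31 and the window fit 83 residual degrees of freedom. Scripts were tested on simulated data. Alternatives covered the block, pseudocounts of 0.5 and 10, a mean of at least 10, TMM, a trend, edgeR 4.0.16 on recovered reads and left-out libraries. The replicate number is the Cycle, which the labels give as the shared time course: differences between the Cycles at 2 hours correlated over 12804 genes by a median of 0.442 across 406 pairs of hours, the lowest being -0.0404, and 97% were above 0.1. The median of all genes at 0.5 to 1.5 h was -0.15, and 0.0061 under TMM.

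Named were all members, up to 3 genes per list and direction with the largest change, and the 3 genes most like each member. Members and lists were chosen with earlier results of these data known. Gene positions are of GENCODE M1 on NCBIM37. Promoters of Klf5 and Klf10 were not analysed here.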

Additional observations from a re-analysis of the deposited data

Results flagged for a closer look

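Among the 4 starved libraries, Klf3 had 1 value far from the other 3: 583 at 0 h of Cycle 1 against 440.4, 451 and 454, a gap of 0.904 of the whole range. This was the case in 1 of the 10 members looked at, and chance gives about 1 in 20 such groups.

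The response over the windows differed between the Cycles in Klf4, Klf11 and Klf13, with adjusted p of 0.0411, 0.000307 and 0.000399 from the limma interaction test. Over 10 alternatives, the adjusted p ran from 0.0011 to 0.248 for Klf4, from 0.000191 to 0.00558 for Klf11 and from 6.16e-05 to 0.0064 for Klf13. Klf11 and Klf13 passed in all 10, and Klf4 missed the threshold with TMM rescaling, at 0.0573, and with the shared hours only, at 0.248. The cause was not tested.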

How the results depend on the processing

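Over the shared hours, 7 members were called, and 6 to 8 under the alternatives that kept both Cycles. Leaving out a starved library or a Cycle gave 0 to 7, the 0 with either Cycle alone, where 1 residual degree of freedom was left and no gene of the table was called. The 13 higher pairs of member and window ran from 13 to 18 with such libraries left out. They were 21 without the 0 h libraries, added after seeing the data, and 29 with no minimum change. Without Cycle 1, which also removes the 28 to 33 h and 34 to 38 h windows, the 24 lower pairs were 7. They were 30 without Cycle 2 and 13 without the 0 h library of Cycle 1. They were 6 without the 0 h libraries and 40 without the libraries 1 h before serum. The change of Klf6 at 27 h turned from -0.81 to 0.0775 without the 0 h libraries. Without the replicate block, 6 members were called over the hours and 3 at 0 h, Klf2 being the one lost in both, and 14 pairs were higher and 23 lower. Over the single changes of members and all settings, 710 kept their side of the threshold, 63 lost it and 1 gained it. The count of members higher at 0 h was 3 or 4 under all alternatives run, and with 1 Cycle left out that comparison has no residual degrees of freedom. Depth limits Klf7 and Klf5 most, with starved values of 24 to 72 reads.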
